A study of Mus musculus with 28 samples.

Results

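The genes of the epidermal differentiation complex and the S100a genes beside it lie in one stretch of mouse chromosome 3 and encode much of the outer wall of a keratinocyte. They were taken by symbol from the count files: names starting with Sprr, Lce or S100a, and Flg, Flg2, Hrnr, Rptn, Lor, Ivl, Tchh, Tchhl1 and Crnn, protein-coding genes only. The rule found 59 of 55536 genes, comprising 14 S100a genes, 15 Sprr genes, 21 Lce genes, 7 S100-fused genes (Flg, Flg2, Hrnr, Rptn, Tchh, Tchhl1 and Crnn), and Lor and Ivl. All lay on GRCm38 chromosome 3, between the start of S100a1 at 90511034 and the end of S100a10 at 93564643. Sprr2g, S100a11-ps and Sprr2c-ps had a fitting name and no protein-coding annotation, and were left out. The rule itself uses no measured value, though it was chosen with earlier results of these data known.

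The libraries hold RNA of interfollicular epidermis (IFE), the epidermis between hair follicles, and were made to profile the Slc1a3, Dlx1 and Aspm lineages of its basal layer. All mice were called wild type and carried a RosatdTomato reporter with 1 of 4 CreER drivers: Slc1a3CreER, AspmCreER, Dlx1CreER or K14CreER (keratin 14, a gene of all basal keratinocytes). Every group, totals included, received tamoxifen at 100 ug/ml on 5 consecutive days at postnatal days 30 to 34, and was sampled after another 2 weeks, on postnatal day 49 (telogen, when hair follicles rest). Tail skin gave Slc1a3+, Aspm+ and Dlx1+ cells and the total IFE of each line, with 2 libraries a group (R1 and R2). Back skin gave Slc1a3+ and Aspm+ cells and their totals, with 3 libraries a group (R1, R2 and R4), and K14+ cells and their total, with 2 (R1 and R4). These made 12 groups and 28 libraries. Cells marked by the driver 2 weeks earlier hold its descendants as well as the cells first marked, and the labels do not tie libraries to separate animals: the p-values therefore speak only of the variation among these libraries, which may be technical.

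As keratinocytes leave the basal layer they cross-link precursor proteins beneath the cell membrane into a cornified envelope. Loricrin (Lor) is its main reinforcing protein, involucrin (Ivl) an early scaffold, the Sprr proteins are small proline-rich cross-bridges, and the Lce proteins join late. Filaggrin (Flg) and its S100-fused relatives bundle keratin filaments in the granular layer, and trichohyalin (Tchh) does so in the inner root sheath of hair and in some tongue and nail epithelia. The S100a proteins are small calcium-binding proteins. S100a10 binds annexin A2 at the membrane, S100a11 binds annexin A1, and S100a8 and S100a9 form calprotectin, a protein of neutrophils and of stressed keratinocytes.

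Library totals ran from 7738262 to 37670589 counts (median 20193387), and a level in CPM is a count scaled by library size and the TMM factors of edgeR; ± marks the SD. The total IFE library R4 of the back Slc1a3 line had the lowest total and stood apart in several members: S100a11 had 36.4 CPM there, against at least 148.9 CPM in the other back libraries, and Lor had 20.2 CPM and Sprr1a 0. The basal markers (Krt5, Krt14, Krt15, Col17a1, Itga6 and Itgb4) summed to 65348 to 118207 CPM in tail and 54057 to 85979 CPM in back libraries, so the epidermal label held throughout. Summed spinous markers (Krt1, Krt10 and 4 others) had 6971 to 12840 CPM in tail and 9432 to 18953 CPM in back libraries, the highest being that R4 library. The hard keratins Krt36 and Krt84, made by tail scales, summed to 1790 to 6195 CPM in tail and 0.123 to 88.7 CPM in back libraries. The back Slc1a3+ library R2 held the 88.7 CPM, and back Aspm+ R1 followed with 17.0 CPM. Fewer cells of a type and less RNA per cell cannot be told apart in such bulk libraries.

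The promoters of the families differ in the letters they carry, and 6 are printed because the results turn on their genes. Each is the 250 bases before the RefSeq start on GRCm38.p6, 5′ to 3′ on the gene's strand. Capitals mark a TATA box (TATAAA) or an AP-1-like element (TGANTCA). The latter is a loose form of TGA(C/G)TCA, the site of Fos and Jun dimers. Motifs were searched on both strands, and the forms do not overlap.
Sprr1b, minus strand, chr3:92438780-92439029: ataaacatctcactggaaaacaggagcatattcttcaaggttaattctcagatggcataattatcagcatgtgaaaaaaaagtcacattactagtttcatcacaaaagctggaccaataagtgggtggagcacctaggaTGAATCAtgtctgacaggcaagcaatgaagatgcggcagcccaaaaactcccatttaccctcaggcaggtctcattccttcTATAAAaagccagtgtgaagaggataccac
Sprr1a, minus strand, chr3:92485882-92486131: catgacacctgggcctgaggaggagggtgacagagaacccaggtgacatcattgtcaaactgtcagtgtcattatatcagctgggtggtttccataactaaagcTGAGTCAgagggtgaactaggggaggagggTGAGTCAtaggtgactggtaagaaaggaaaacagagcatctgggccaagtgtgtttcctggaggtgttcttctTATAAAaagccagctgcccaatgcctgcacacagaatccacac
Sprr2b, plus strand, chr3:92316455-92316704: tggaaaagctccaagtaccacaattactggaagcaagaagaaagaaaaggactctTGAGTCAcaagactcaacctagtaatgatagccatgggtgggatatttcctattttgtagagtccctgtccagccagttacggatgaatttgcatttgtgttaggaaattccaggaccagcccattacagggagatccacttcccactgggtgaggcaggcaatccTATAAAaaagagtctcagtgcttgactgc
Lor, minus strand, chr3:92083143-92083392: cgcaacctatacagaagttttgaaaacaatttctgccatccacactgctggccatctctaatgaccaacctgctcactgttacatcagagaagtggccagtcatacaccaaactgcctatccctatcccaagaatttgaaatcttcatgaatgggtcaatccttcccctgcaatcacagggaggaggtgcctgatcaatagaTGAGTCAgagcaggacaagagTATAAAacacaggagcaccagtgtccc
Lce1d, minus strand, chr3:92687211-92687460: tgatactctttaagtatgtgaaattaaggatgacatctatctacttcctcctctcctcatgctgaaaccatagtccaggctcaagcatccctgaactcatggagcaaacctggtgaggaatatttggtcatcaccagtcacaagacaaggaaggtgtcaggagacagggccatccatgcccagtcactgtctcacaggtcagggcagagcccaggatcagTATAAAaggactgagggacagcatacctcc
S100a6, plus strand, chr3:90612644-90612893: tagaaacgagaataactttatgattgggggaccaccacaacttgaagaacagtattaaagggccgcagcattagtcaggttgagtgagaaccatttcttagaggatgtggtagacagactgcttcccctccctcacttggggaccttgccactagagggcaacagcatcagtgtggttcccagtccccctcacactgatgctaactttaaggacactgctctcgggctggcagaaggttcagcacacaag
The 3 Sprr windows and Lor held both motifs, Lce1d held the TATA box only, and S100a6 held neither. RefSeq windows matched 54 of the 59 genes. TATAAA stood in 22 of them (40.7%), against 12.4% of the 32851 promoter windows of the table. TGANTCA stood in 17 (31.5%), against 6.75% of all windows. The GC box GGGCGG, common in promoters of widely used genes, stood in 3 (5.56%), against 32.7% of all. By family, TATAAA stood in 10 of 14 Sprr windows, 4 of 7 S100-fused windows, both Lor and Ivl, and 2 of 11 S100a windows. It stood in 4 of 20 Lce windows, and in 2 of 13 of Lce1 genes, so Lce1d is not typical of its family. TGANTCA stood in 9 of 14 Sprr windows, 5 of 7 S100-fused windows, both Lor and Ivl, 1 of 11 S100a windows and 0 of 20 Lce windows. The matches of the S100-fused genes and of Sprr1b read TGAATCA or TGATTCA, not TGA(C/G)TCA. Some windows are close copies: pairs of Sprr2 windows were 48.0 to 100% identical (median 62.2%) and pairs of Lce1 windows 50.5 to 85.6% (median 63.6%). The shares among members therefore do not count independent promoters. A match is only a run of letters, and a window without one says nothing of the factor.

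The family split into abundant S100a genes and scarce envelope genes. Per kilobase of transcript and averaged over the 28 libraries, S100a10 had the highest level (436.6 CPM per kb), followed by S100a14 (388.0), S100a11 (364.2), S100a6 (264.6) and S100a16 (214.1). These 5 genes summed to 1336 to 3030 CPM a library, of 1361 to 3132 CPM for all S100a genes. The highest envelope gene per kilobase was Lor at 9.7 CPM per kb, ahead of Sprr1a (5.48) and Tchh (3.36), while Flg had 0.028 CPM per kb. The late granular products thus had few counts in these libraries. Sprr2k, Sprr3, Lce3a, Lce3b and Lce3e had no count in any library, for which 3 counts of the library total is the limit. Another 13 genes had too few counts to be tested (Crnn, Lce3c, Lce3d, Lce3f, S100a2, S100a5, Sprr2a1, Sprr2a2, Sprr2d, Sprr2e, Sprr2f, Sprr2i and Sprr2j-ps). The 41 that passed the filter were 12 S100a, 6 Sprr, 15 Lce, 6 S100-fused, and Lor and Ivl.

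**Figure D1:**
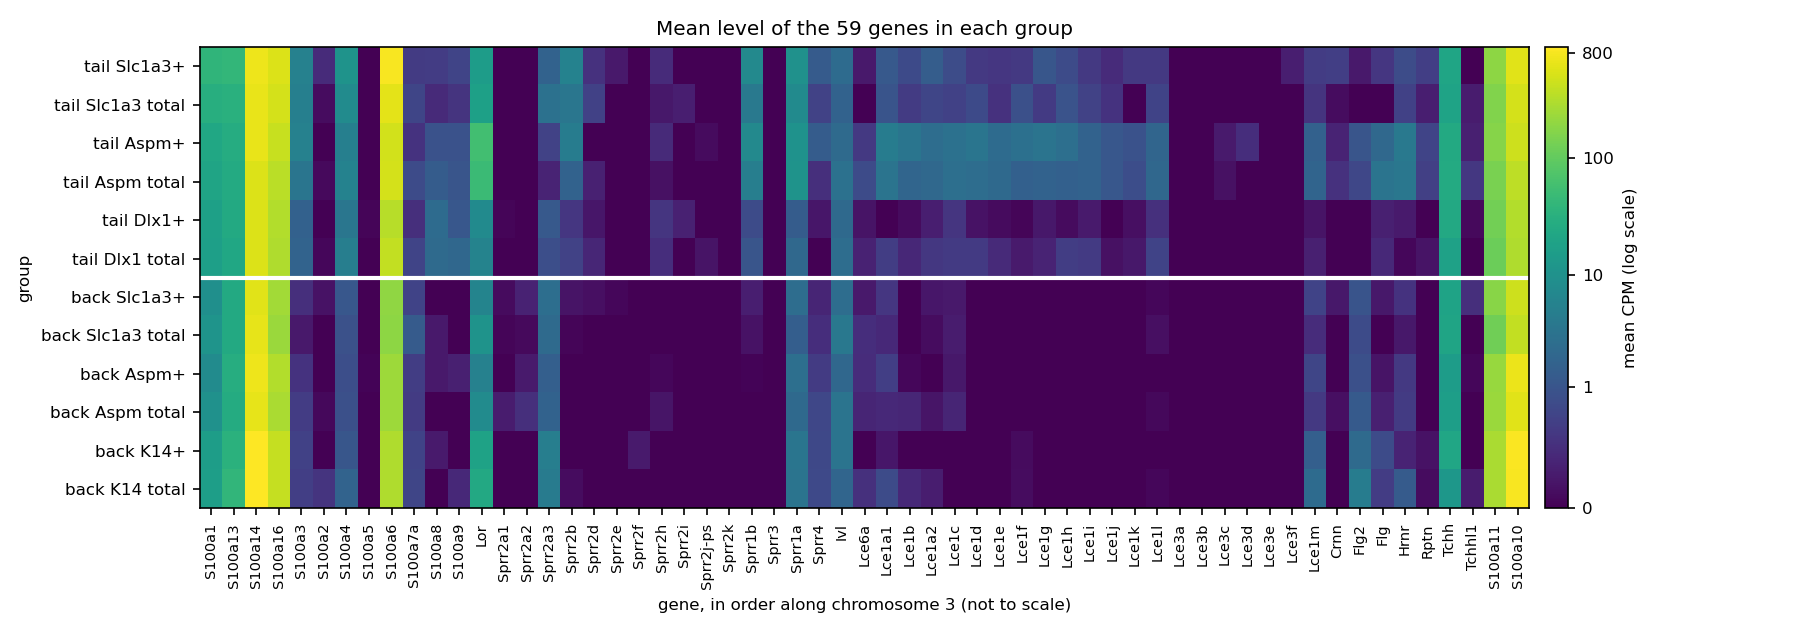
Mean CPM (log colour scale) of the 59 genes in their order along chromosome 3 (columns) in the 12 groups (rows, tail above back, labelled cells above their total). S100a6, S100a10, S100a11, S100a14 and S100a16, at the ends of the stretch, are high in every group, and the Lce1 and Sprr genes between them are filled mainly in tail rows.

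S100a14, which is expressed in many epithelia, was the most even of the abundant genes. Its group means in tail were 702 ± 58 CPM in Slc1a3+ cells and 665 ± 57 in their total, 662.5 ± 14.2 in Aspm+ cells and 557.8 ± 7.09 in their total, and 565.1 ± 58 in Dlx1+ cells and 552.6 ± 62.1 in their total (SD, n = 2 each). In back they were 594.5 ± 112.7 in Slc1a3+ cells and 631.6 ± 147.9 in their total, 717 ± 3.57 in Aspm+ cells and 653.3 ± 32 in their total (n = 3 each), and 900.1 ± 31.2 in K14+ cells and 881.4 ± 31.2 in their total (n = 2 each). Between its lowest and highest group means S100a14 thus moved by less than S100a6 or S100a10. S100a10 ran in tail at 588.5 ± 93.7 and 505.6 ± 55.1 CPM (Slc1a3+ and total), 448.9 ± 18.8 and 368.1 ± 1.38 (Aspm+ and total), and 310.7 ± 53.9 and 301.2 ± 56.7 (Dlx1+ and total). In back S100a10 ran at 453.1 ± 69.7 and 389.1 ± 84.4 CPM (Slc1a3+ and total), 689 ± 130.9 and 593.4 ± 18.5 (Aspm+ and total), and 868.3 ± 16.3 and 829.3 ± 44.2 (K14+ and total). Its order of lines differed by site, with the Slc1a3 line highest of 3 in tail and lowest of 3 in back.

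S100a6, a calcium-binding protein found in many proliferating cells, had a higher mean in each tail group than in any back group. It had 817.9 ± 39.5 CPM in tail Slc1a3+ cells and 610.9 ± 79 in their total, 483.3 ± 48.5 in tail Aspm+ cells and 507.1 ± 2.21 in their total, and 339.5 ± 86.2 in tail Dlx1+ cells and 388 ± 105.9 in their total. In back it had 200.4 ± 44.3 CPM in Slc1a3+ cells and 189.9 ± 67.5 in their total, 239.3 ± 66.6 in Aspm+ cells and 240.8 ± 34.3 in their total, and 304.7 ± 25.3 in K14+ cells and 307.5 ± 13.1 in their total. Tail Dlx1 groups and back K14 groups were neighbours in this order and overlapped, since tail Dlx1+ R2 had 278.6 CPM and back K14+ R1 322.6 CPM.

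**Figure D2:**
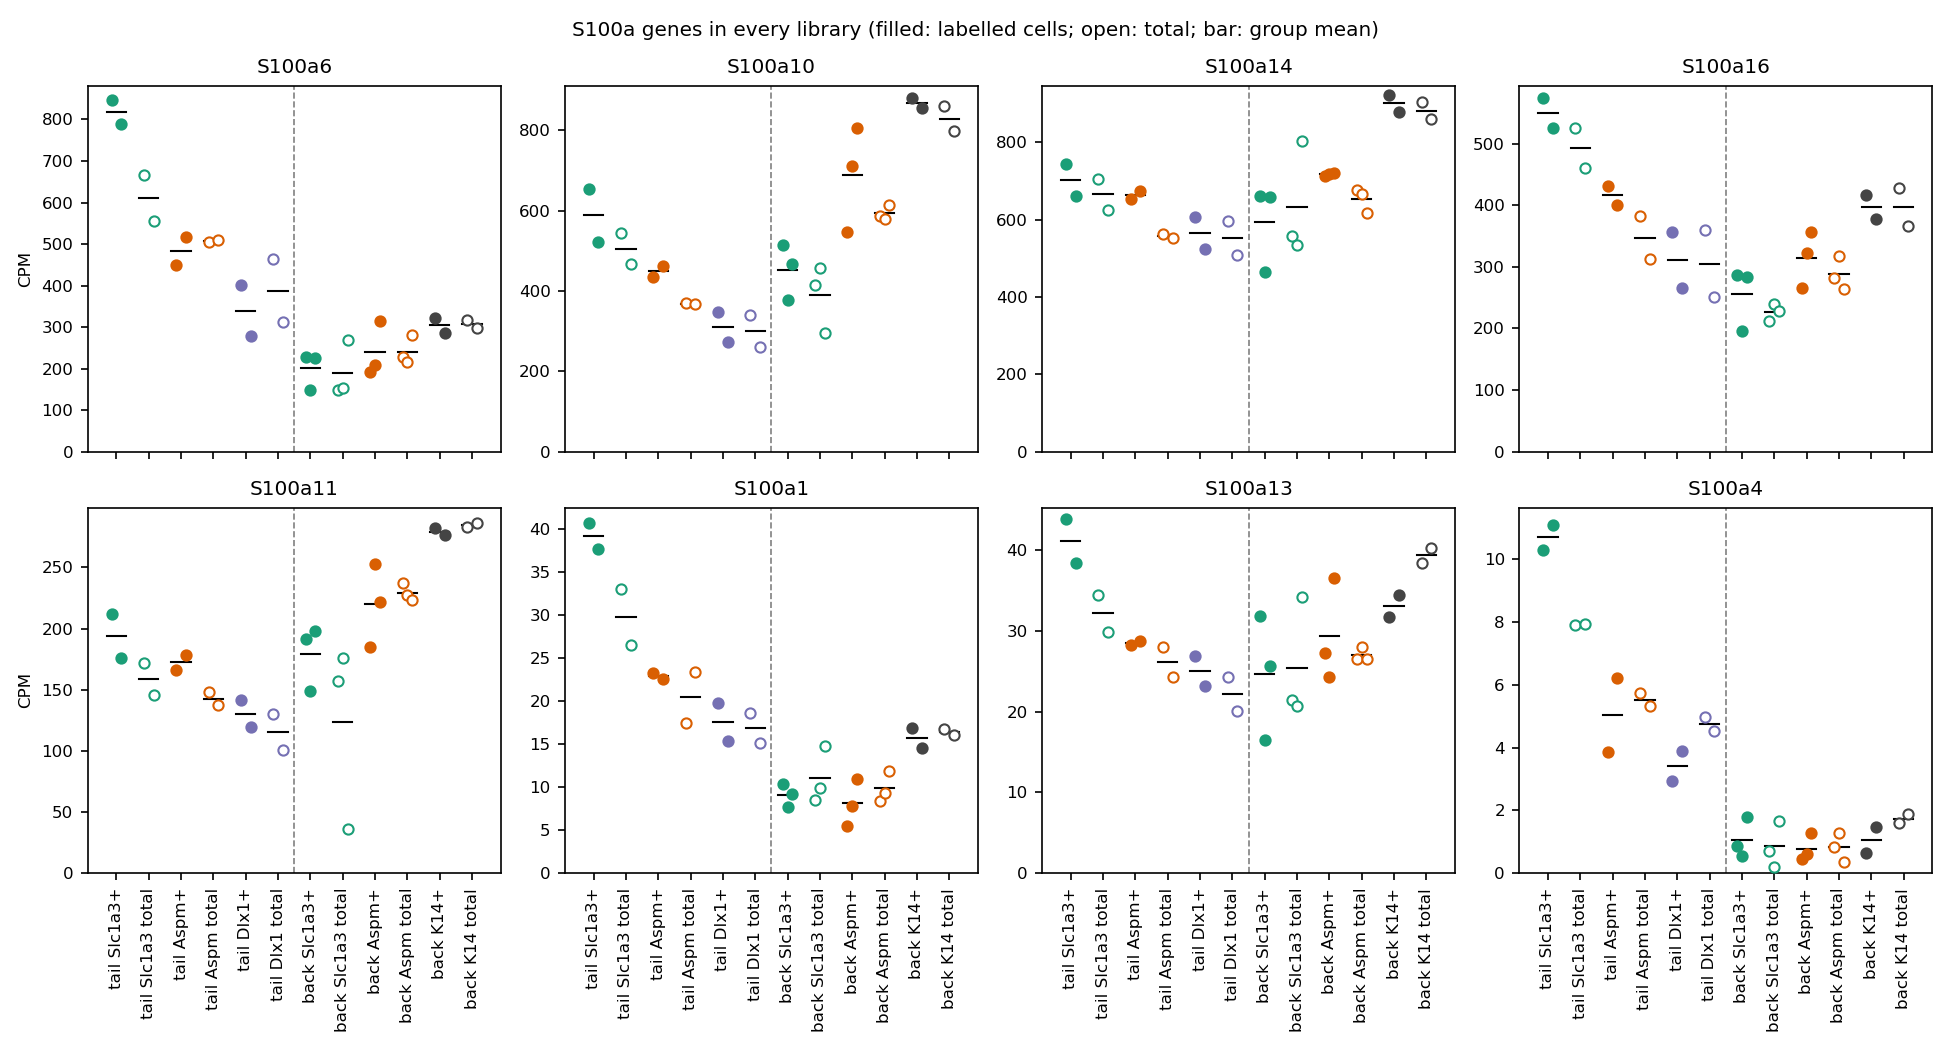
CPM of 8 S100a genes in each library by line and site (filled points labelled cells, open points total IFE, bars group means, dashed line between tail and back). S100a6 is highest in tail Slc1a3+ cells (845.8 and 790.0 CPM), and S100a10 in back K14+ cells (879.8 and 856.8 CPM).

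Among the Sprr genes the 3 highest were Sprr1a, Sprr2a3 and Sprr1b. Sprr1a had 10.6 and 9.32 CPM in tail Slc1a3+ and 8.33 and 7.36 in their total, 6.11 and 14.2 in tail Aspm+ and 8.02 and 13.6 in their total, and 0.823 and 1.83 in tail Dlx1+ and 1.72 and 2.48 in their total, while back libraries held 0 to 4.17 CPM. The tail Dlx1 line thus lay far below the other tail lines and overlapped the back libraries. Sprr2a3 averaged in tail 1.68 ± 0.48 CPM in Slc1a3+ cells and 2.94 ± 1.2 in their total, 0.497 ± 0.264 in Aspm+ cells and 0.151 ± 0.146 in their total, and 1.19 ± 0.378 in Dlx1+ cells and 0.792 ± 0.123 in their total. In back Sprr2a3 averaged 2.56 ± 0.871 CPM in Slc1a3+ cells and 2.22 ± 0.53 in their total, 1.48 ± 1.5 in Aspm+ cells and 1.63 ± 1.31 in their total, and 4.89 ± 3.92 in K14+ cells and 4.27 ± 2.78 in their total. Unlike Sprr1b, it had counts in every back library. Sprr2a3 shares 61.1% of its 50-base words with other transcripts, mainly of the Sprr2a copies, so its counts are uncertain. Summed Sprr counts were 26.3 ± 7.01 CPM in tail Slc1a3+ cells and 19.3 ± 5.01 in their total, 23.6 ± 7.81 in tail Aspm+ cells and 17.9 ± 3.34 in their total, and 4.15 ± 1.36 in tail Dlx1+ cells and 4.85 ± 1.04 in their total. Sums in back groups averaged 3.96 to 8.9 CPM.

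The Lce genes were led by Lce1a1, Lce1m and Lce1c. Lce1a1 reached 2.44 and 6.53 CPM in tail Aspm+ cells and 1.44 and 4.98 in their total, 1.8 and 0.534 in tail Slc1a3+ cells and 1.17 and 0.787 in their total, and 0 and 0 in tail Dlx1+ cells and 0 and 0.859 in their total, with at most 1.01 CPM in back. Lce1c held 1.03 and 4.73 CPM in tail Aspm+ cells and 1.15 and 4.17 in their total, 1.11 and 0.356 in tail Slc1a3+ cells and 0.964 and 0 in their total, 0.463 and 0.152 in tail Dlx1+ cells and 0.528 and 0.215 in their total, and 0 to 0.382 CPM in back. The tail Aspm line was thus highest in both, mainly through R2. Lce1m broke this pattern: it averaged 1.57 ± 1.12 CPM in tail Aspm+ cells and 1.81 ± 1.24 in their total, and 1.47 ± 1.39 in back K14+ cells and 2.3 ± 3.25 in their total, while the other 8 groups averaged 0.0608 to 0.566 CPM. In 12 genes (Sprr2i, Sprr2j-ps, Lce1d, Lce1e, Lce1g, Lce1h, Lce1i, Lce1j, Lce1k, Lce3c, Lce3d and Lce3f) every back library had 0 counts and at least 1 tail library did not. The Lce1 genes are close copies that share 9.1 to 27.1% of their 50-base words with other transcripts (Lce1m none), and how reads on shared words were counted is not given in the sources used here.

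Lor, Ivl and Tchh were present in every group. Lor had 30.7 and 85.6 CPM in tail Aspm+ and 20.1 and 77.4 in their total, 18.3 and 11.8 in tail Slc1a3+ and 26.9 and 8.73 in their total, and 8.23 and 7.36 in tail Dlx1+ and 4.33 and 7.39 in their total. In back, Lor had 3.56 to 8.28 CPM in Slc1a3+ and Aspm+ cells and 4.46 to 20.2 in their totals, and 29.7 and 8.03 in K14+ cells and 39.6 and 8.48 in their total. The highest Lor libraries, tail Aspm R2 and back K14 R1, were high in both gates, whereas in back Slc1a3, back Aspm and tail Dlx1 the highest labelled library had a lower total than another number. Ivl varied little, with group means of 2.13 to 2.31 CPM in labelled cells and 1.66 to 2.9 CPM in totals of tail, and of 1.99 to 3.22 CPM in labelled cells and 1.88 to 3.68 CPM in totals of back. Tchh had group means of 21.2 to 24.7 CPM in labelled cells and 18.1 to 25.7 CPM in totals of tail, and of 15.2 to 21.9 CPM in labelled cells and 12.2 to 20.0 CPM in totals of back, although the inner root sheath markers (Krt71, Krt25, Krt27 and 3 others) summed to 0 to 2.43 CPM in all back libraries but K14+ R1, at 32.8 CPM.

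The labelled cells were compared with the total IFE of their line and site, to see whether a lineage is further along this programme. In edgeR's quasi-likelihood test with Benjamini-Hochberg adjustment over 17493 genes, 0 of 41 genes passed in each of the 6 comparisons. The share of all genes that passed was 0.514% for tail Slc1a3+ cells, 0.109% for back Slc1a3+ cells, 0.00572% for tail Aspm+ cells and again for back K14+ cells, and 0.0% for tail Dlx1+ and back Aspm+ cells. So few genes of any kind passed that a count of 0 is near this background. At an unadjusted p under 0.05 there were 2 members in tail Slc1a3+, 0 in tail Aspm+, 1 in tail Dlx1+, 0 in back Slc1a3+, 0 in back Aspm+ and 5 in back K14+ cells, while 1004, 423, 446, 988, 382 and 376 genes did so in the same order. DESeq2 also called 0 members in each.

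For the abundant genes the labelled and total libraries lay close together, and the size of the difference is given with its error. Over the 9 genes with a mean of at least 10 CPM the log2 differences ran from -0.76 to 0.85, with standard errors of 0.145 to 0.831. S100a14 differed by -0.09 to 0.25 on the log2 scale and S100a10 by 0.04 to 0.29. Both were higher in the labelled library in 12 of 14 pairs of the same line, site and number. Summed spinous and basal markers were likewise higher in the labelled library of all pairs but back Slc1a3 R4. In tail Slc1a3+ cells these sums averaged 11001 and 116123 CPM, against 8303 and 97778 CPM in their total. How many of all genes leaned this way was not counted, and the labels do not state the pairing. S100a6 was higher in the labelled library in 6 of 14 pairs, with 845.8 and 790.0 CPM in tail Slc1a3+ cells against 666.8 and 555.1 CPM in their total (log2 0.42, the largest of its 6). Tchh had the largest difference of these genes, at 25.9 and 18.0 CPM in back K14+ cells against 10.3 and 14.1 CPM in their total (log2 0.85, SE 0.336, adjusted p = 1.0). The wider gap was in R1, where inner root sheath markers summed to 32.8 CPM in K14+ cells and 1.62 CPM in their total. In R4 these markers summed to 0 and 1.3 CPM, and their part in the Tchh difference was not tested. Whether the labelled-over-total difference itself differed between tail and back was tested for the Slc1a3 and Aspm lines: 0 members passed in either (0.0915% and 0.0% of all genes), and 0 had an unadjusted p under 0.05 or a call by DESeq2.

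**Figure D3:**
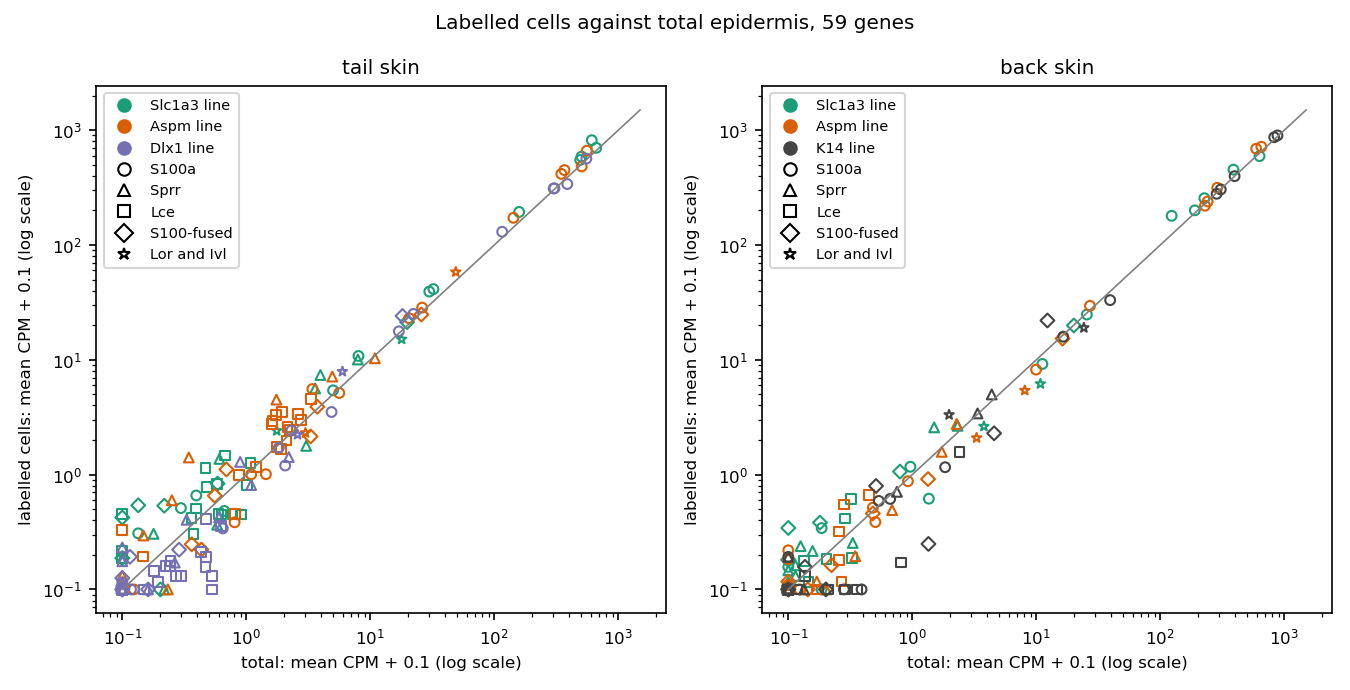
Mean CPM + 0.1 of each member in labelled cells (vertical, log axis) against total IFE of the same line (horizontal, log axis), in tail and back panels, with the line of equal level. The S100a genes lie on the line from about 100 CPM up, and scatter grows among genes of under 1 CPM.

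Between sites, a set of envelope and S100a genes was higher in tail, whereas the S100a genes did not move as one family. In total IFE of the Slc1a3 and Aspm lines (4 tail and 6 back libraries, each line weighted equally), 25 members were higher in tail and 1 lower, by edgeR's quasi-likelihood test at an adjusted p under 0.05. Of all 17493 genes 46.2% passed, 22.5% higher and 23.7% lower. The members higher in tail were 12 of 15 Lce, 7 of 12 S100a, 3 of 6 Sprr, 2 of 6 S100-fused (Hrnr and Rptn) and Lor. Members near 0 in back passed the low-count filter only through tail, so these counts are no support for a direction of the family. Summed S100a levels were 2509 ± 261.5 CPM in tail against 1599 ± 79.9 CPM in back for the Slc1a3 total, and 1981 ± 59.5 CPM in tail against 2043 ± 3.91 CPM in back for the Aspm total (n = 2 and 3 each). The sum was thus above back in every tail library of the Slc1a3 line and below it in both of the Aspm line. Spinous markers, given above, had a lower range in tail that overlapped the one in back, whereas inner root sheath markers summed to 29.5 to 59.8 CPM in the tail totals of these lines and at most 2.35 CPM in the back totals. The part of either in the result was not tested.

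The 6 members with the lowest p were Sprr1b, S100a6, S100a4, S100a1, S100a3 and Sprr2b. Sprr1b (ENSMUSG00000048455, chr3:92436809-92438789) and Sprr2b (ENSMUSG00000050092, chr3:92316620-92318085) lie in the middle of the stretch. S100a6 (ENSMUSG00000001025, chr3:90612882-90624181), S100a4 (ENSMUSG00000001020, chr3:90603771-90606045), S100a3 (ENSMUSG00000001021, chr3:90560578-90602702) and S100a1 (ENSMUSG00000044080, chr3:90511034-90514392) lie at its proximal end. Sprr1b, a cross-bridge protein raised in squamous and wounded epithelia, had 1.86 and 5.86 CPM in the tail Slc1a3 total and 5.22 and 4.45 in the tail Aspm total, against 0, 0.171 and 0 in the back Slc1a3 total and 0 in all 3 of the back Aspm total. No back library came near the lowest tail library (4.35 ± 1.76 against 0.0285 ± 0.0698 CPM, n = 4 and 6, adjusted p = 1.25e-07), and its fitted log2 of 7.75 (SE 0.785) rests on a group with no counts. Sprr2b, of the same family, had 0.757, 6.21, 1.53 and 1.77 CPM in these tail totals, with 242 counts there against 1 count in the back totals (95% counting interval of the ratio 65.0 to 14499, adjusted p = 8.96e-06). Sprr1b shares no 50-base word with another transcript and Sprr2b shares 14.1%.

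S100a6 had 666.8, 555.1, 505.6 and 508.7 CPM in these tail totals, against 149.2, 152.7 and 267.8 in the back Slc1a3 total and 227.0, 215.5 and 279.8 in the back Aspm total. The groups did not overlap (559 ± 75.3 against 215.3 ± 55.4 CPM; log2 1.38, SE 0.172, adjusted p = 6.54e-07). S100a1, known chiefly from heart and skeletal muscle, had 33.0, 26.5, 17.5 and 23.4 CPM in the tail totals, against 8.51, 9.92, 14.8, 8.42, 9.3 and 11.9 CPM in the back totals (log2 1.25, SE 0.183, adjusted p = 6.2e-06). Every tail library was above every back library here too, and summed skeletal muscle markers were alike in tail (1.34 to 4.25 CPM) and back (1.82 to 4.39 CPM). S100a4, a gene of fibroblasts and Langerhans cells among others, had 7.92, 7.95, 5.73 and 5.32 CPM in tail, against 0.72, 0.214, 1.66, 0.842, 1.27 and 0.349 CPM in back (log2 3.07, SE 0.432, adjusted p = 3.66e-06). S100a3, a cysteine-rich protein of the hair cuticle, had 5.03, 4.8, 2.97 and 3.64 CPM in tail, against 0.172, 0.0855, 0, 0.351, 0.382 and 0.48 CPM in back (log2 4.22, SE 0.619, adjusted p = 6.2e-06). Fibroblast markers summed to 21.9 to 39.2 CPM in all tail and 0.968 to 14.7 CPM in all back libraries, and hair cortex and cuticle markers to 7.82 to 38.3 and 16.8 to 39.4 CPM. Their part in the S100a4 and S100a3 results was not tested, and 47.4% of S100a4's 50-base words are shared with the overlapping transcript Gm42674.

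The other members that passed in total IFE followed with smaller changes or fewer counts. S100a16 was 0.70 higher on the log2 scale, Sprr1a 2.32, Hrnr 2.72, Lce1a1 3.10, Lce1a2 4.19, Lce1c 2.99 and Lce1l 4.47. Lce1b averaged 1.12 ± 1.37 CPM in tail and 0.0838 ± 0.12 CPM in back, where the Slc1a3 total held no count (fitted log2 4.71). Lor was 1.69 higher (adjusted p = 0.012), but lost its call without the R1 library of the tail Slc1a3 total (1.17, adjusted p = 0.126) or the R2 library of the tail Aspm total (1.06, adjusted p = 0.144). Against 0 counts in back, set to 3 per library, Lce1d was at least 9.21-fold, Lce1h at least 6.99-fold, Lce1e at least 6.95-fold, Lce1f at least 6.73-fold, Lce1i at least 6.2-fold, Lce1g at least 5.78-fold and Lce1j at least 3.94-fold higher in tail. By the same bound S100a9 was at least 3.72-fold and Rptn at least 1.66-fold higher. S100a8 had 0, 0.393, 0.467 and 2.2 CPM in the tail totals and at most 0.256 CPM in the back totals (fitted log2 4.48, with no count in the back Aspm total), with neutrophil markers at 0 to 0.59 CPM in tail and 0 to 0.638 CPM in back, Ngp being 0 in every library. Flg2, the filaggrin relative, was the one member lower in tail, with 0 and 0 CPM in the Slc1a3 total and 0.127 and 1.05 in the Aspm total, against 0, 0.812 and 1.28 CPM and 1.19, 0.127 and 2.4 CPM in back (adjusted p = 0.0299). Its groups overlapped, and the call was lost in 8 of 17 alternative settings and left-out libraries. One of these was the fit without back Slc1a3 total R4 (adjusted p = 0.0526).

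Many abundant members did not pass between sites in total IFE. The log2 difference was -0.08 for S100a14, -0.16 for S100a10, -0.17 for S100a11, 0.15 for S100a13, 0.34 for Tchh and -0.63 for Ivl. For S100a10 this averaged lines that went opposite ways. Its Slc1a3 total had 544.5 and 466.6 CPM in tail, against 415.7, 457.0 and 294.7 CPM in back. Its Aspm total had 369.1 and 367.2 CPM in tail, against 587.5, 578.7 and 614.2 CPM in back. The value of S100a11 includes the 36.4 CPM of back Slc1a3 total R4. The lines were not tested apart. In 16 members every tail total was above every back total, which 15.6% of all genes did. Members near 0 in back passed the low-count filter only through tail, so this count too is no support for a direction of the family.

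The labelled cells were also compared between sites in the Slc1a3 and Aspm lineages. As in total IFE, members near 0 in back passed the low-count filter only through tail. The counts of members in Slc1a3+ cells, and in Aspm+ cells below, are therefore no support for a direction of the family. In Slc1a3+ cells (2 tail and 3 back libraries) 15 members were higher in tail and 0 lower, while 40.6% of all genes passed, 19.0% higher. S100a6 had 845.8 and 790.0 CPM in tail, against 227.5, 149.2 and 224.4 CPM in back (log2 2.03, SE 0.245, adjusted p = 6.65e-07). S100a1 had 40.7 and 37.6 CPM in tail, against 10.4, 7.74 and 9.16 CPM in back (log2 2.11, SE 0.261, adjusted p = 9.28e-07). S100a16 had 574.7 and 525.4 CPM in tail, against 286.5, 196.4 and 283.8 CPM in back (log2 1.11, SE 0.179, adjusted p = 3.15e-05). For these 3 calcium-binding genes no back library reached a tail library. Sprr1b had 5.76 and 8.78 CPM in tail, against 0, 0.187 and 0.162 CPM in back (log2 5.90, SE 0.893, adjusted p = 2.95e-05). S100a4 had 10.3 and 11.1 CPM in tail, against 0.856, 0.56 and 1.78 CPM in back (log2 3.36, SE 0.607, adjusted p = 0.000115). S100a3 had 5.0 and 5.64 CPM in tail, against 0.228, 0.0933 and 0.405 CPM in back (log2 4.51, SE 0.88, adjusted p = 0.000258). The remaining 9 were Sprr2b (log2 6.14), Sprr1a (2.02), S100a13 (0.74), Lce1a2 (4.04) and, against 0 counts in back, Lce1g (at least 5.68-fold higher), Lce1b (at least 3.65-fold), Lce1h (at least 3.83-fold), Lce1f (at least 1.89-fold) and Lce1d (at least 1.9-fold). Lce1f had 0.698 CPM in tail R1 and 0 in tail R2, so its bound rests on R1 alone. Lce1a2 had 2.62 and 0.119 CPM in tail, and its tail R2 lay under back R1 (0.228 CPM). The 15 calls dropped to 9 without the tail R1 or the back R2 library. With library totals in place of TMM scaling the median of all genes moved by -0.295, and 12 members passed; all genes then split 2482 higher and 4742 lower, against 3328 and 3776.

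In Aspm+ cells (2 tail and 3 back libraries) 24 members were higher in tail and 1 lower, while 27.2% of all genes passed, 12.7% higher. Sprr1b had 6.98 and 7.09 CPM in tail, against 0, 0.0285 and 0 CPM in back (ratio interval 93.0 to 20737, adjusted p = 5.4e-06). Sprr2b had 3.52 and 5.29 CPM in tail and 0 in all 3 back libraries, and was at least 33.8-fold higher (adjusted p = 0.000152). Both Sprr genes were thus all but absent from back Aspm+ cells. S100a1 had 23.2 and 22.6 CPM in tail, against 5.5, 7.83 and 11 CPM in back (log2 1.5, SE 0.259, adjusted p = 0.000122). S100a3 had 3.76 and 7.15 CPM in tail, against 0.356, 0.399 and 0.102 CPM in back (log2 4.19, SE 0.833, adjusted p = 0.000532). S100a4 had 3.86 and 6.22 CPM in tail, against 0.458, 0.598 and 1.27 CPM in back (log2 2.7, SE 0.602, adjusted p = 0.00154). Lor (ENSMUSG00000043165, chr3:92080271-92083142) had 30.7 and 85.6 CPM in tail, against 7.89, 3.56 and 4.48 CPM in back, with no overlap (log2 3.46, SE 0.764, adjusted p = 0.00185). Of 15 Lce genes 13 were higher. Against 0 counts in back, Lce1d was at least 25.2-fold, Lce1g at least 24.5-fold, Lce1f at least 21.6-fold, Lce1h at least 20.5-fold, Lce1a2 at least 19.2-fold, Lce1e at least 17.9-fold, Lce1l at least 14.4-fold, Lce1i at least 12.7-fold, Lce1j at least 8.23-fold and Lce1k at least 6.83-fold higher. Lce1a1 (log2 3.33), Lce1c (5.07) and Lce1b (ratio interval 42.6 to 9644) followed. S100a6 (1.01), Sprr1a (1.94), Flg (4.87), Hrnr (3.39) and Rptn (at least 4.26-fold) were higher as well. S100a10 (ENSMUSG00000041959, chr3:93555080-93564643) was the one member lower in tail, with 435.6 and 462.2 CPM against 547.8, 712.5 and 806.5 CPM (log2 -0.62, SE 0.189, adjusted p = 0.0171). The count dropped to 11 without tail Aspm+ R2, and Lor lost its call there (2.54, adjusted p = 0.053).

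S100a1, S100a3, S100a4, S100a6, Sprr1b and Sprr2b passed in all 3 of these site comparisons under every alternative and every left-out library. The 3 comparisons hold different libraries, but labelled and total libraries of one number vary together, so they are not independent of each other. Of the members called, 16 of the 26 of total IFE, 8 of the 15 of Slc1a3+ cells and 10 of the 25 of Aspm+ cells passed in every setting.

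**Figure D4:**
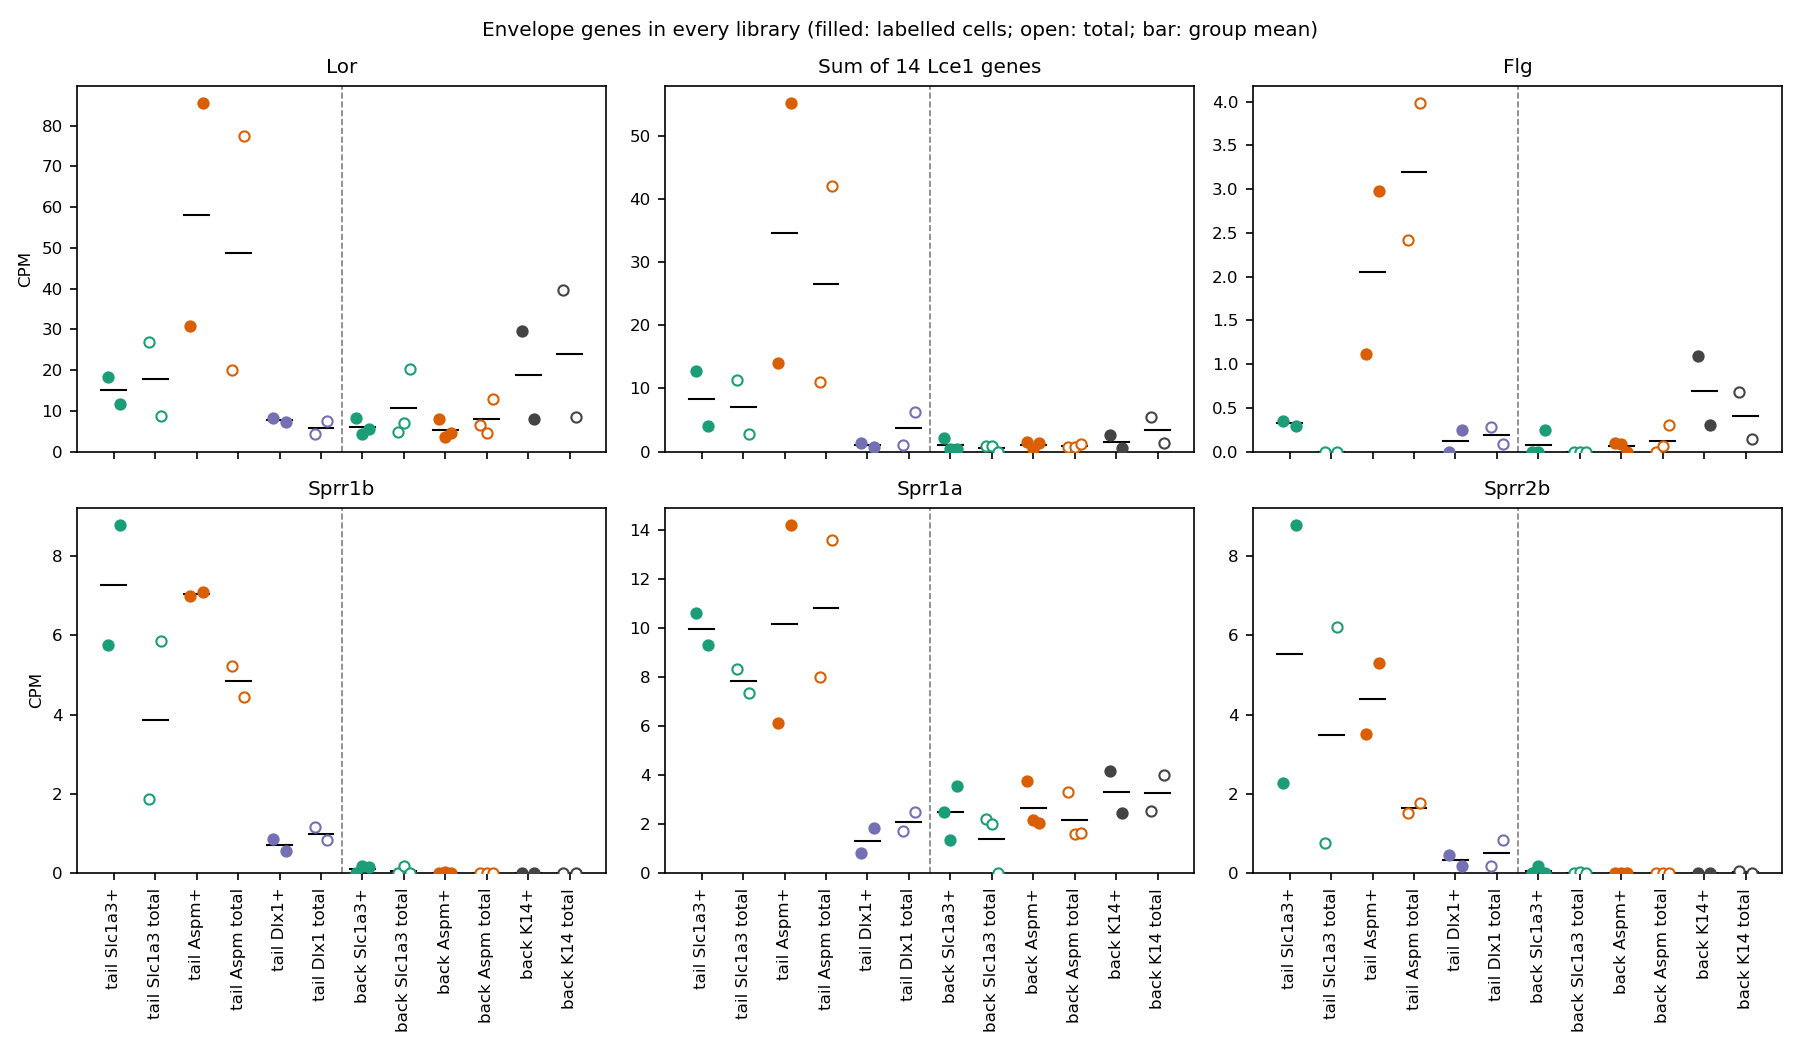
CPM of Lor, the sum of the 14 Lce1 genes, Flg, Sprr1b, Sprr1a and Sprr2b in each library by line and site (filled points labelled cells, open points total IFE, bars group means, dashed line between tail and back). Sprr1b and Sprr2b stand at or near 0 in back, and the 2 libraries of the tail Aspm line differ widely in Lor and Lce1.

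Within tail, the lines differed less, and the Dlx1 line was low in several members. Slc1a3+ cells had 7 members higher than Dlx1+ cells and 0 lower, while 5.47% of all genes passed. S100a6 had 845.8 and 790.0 CPM in Slc1a3+ cells, against 400.5 and 278.6 CPM in Dlx1+ cells (log2 1.27, SE 0.274, adjusted p = 0.0113). S100a10 had 654.8 and 522.2 CPM in Slc1a3+ cells, against 348.8 and 272.7 CPM in Dlx1+ cells (log2 0.92, SE 0.205, adjusted p = 0.0131). In both genes the lower Slc1a3+ library was above the higher Dlx1+ library. S100a16 had 574.7 and 525.4 CPM in Slc1a3+ cells, against 357.3 and 266.1 CPM in Dlx1+ cells (log2 0.82, adjusted p = 0.0202). S100a1 had 40.7 and 37.6 CPM in Slc1a3+ cells, against 19.8 and 15.4 CPM in Dlx1+ cells (log2 1.16, adjusted p = 0.0219). Sprr1a had 10.6 and 9.32 CPM in Slc1a3+ cells, against 0.823 and 1.83 CPM in Dlx1+ cells (log2 2.88, adjusted p = 0.0248). Lce1a1 had 1.8 and 0.534 CPM in Slc1a3+ cells and no count in Dlx1+ cells (at least 9.52-fold higher, adjusted p = 0.0282). The seventh was Sprr1b (log2 3.36, adjusted p = 0.0298). All 7 calls were lost without Slc1a3+ R1 or without Dlx1+ R2, 3 remained without Slc1a3+ R2 and 4 without Dlx1+ R1. With library totals in place of TMM the same number of members passed while the genes split 191 higher and 1308 lower, against 404 and 553, as the median of all genes moved by -0.236.

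In the totals of the same lines 0 members passed (1.92% of all genes did), 11 had an unadjusted p under 0.05, and DESeq2 called 4. All genes split 171 higher and 164 lower with TMM, and 68 and 531 with library totals. S100a10 came nearest, with 544.5 and 466.6 CPM in the Slc1a3 total, against 341.3 and 261.1 CPM in the Dlx1 total (log2 0.75, adjusted p = 0.0566). Whether the labelled cells of these lines differed more than their totals did was not tested. Aspm+ against Dlx1+ cells gave 0 members (0.0915% of all genes), with 22 at an unadjusted p under 0.05 and 4 by DESeq2. Lce1a1 was at least 36.5-fold higher in Aspm+ cells (adjusted p = 0.0578) and Sprr1a 2.91 higher on the log2 scale (adjusted p = 0.187). Slc1a3+ against Aspm+ cells in tail gave 0 members (0.492% of all genes), with 4 at an unadjusted p under 0.05: S100a6 (0.76), S100a1 (0.77), S100a13 (0.53) and Lor (-1.95). DESeq2 called 0 of them. Their totals gave 0 as well (0.00572%, with 8 unadjusted and 2 by DESeq2), as did the Aspm total against the Dlx1 total (0.0343%, with 11 unadjusted and 1 by DESeq2).

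In back skin the K14 line had the highest S100a10 and S100a16. In total IFE of the K14 line against the Slc1a3 and Aspm lines 2 members were higher and 0 lower, while 2.13% of all genes passed. S100a10 had 860.5 and 798.0 CPM in the K14 total, against 415.7, 457.0 and 294.7 in the Slc1a3 total and 587.5, 578.7 and 614.2 in the Aspm total (log2 0.79, SE 0.159, adjusted p = 0.0173). S100a16 had 428.8 and 366.0 CPM in the K14 total, against 211.4, 239.8 and 228.2 in the Slc1a3 total and 281.1, 317.9 and 264.5 in the Aspm total (log2 0.64, SE 0.157, adjusted p = 0.0391). Neither gene overlapped between these groups. Both calls were lost without either K14 total library, and 7 members passed without back Slc1a3 total R4. The split of all genes also turned with the scaling, at 236 higher and 137 lower with TMM, 160 and 145 with DESeq2's size factors, and 89 and 195 with library totals.

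The labelled cells gave 0 members for K14+ against Slc1a3+ and Aspm+ cells (0.532% of all genes), with 7 at an unadjusted p under 0.05 and 2 by DESeq2. All genes split 43 higher and 50 lower with TMM, and 20 and 95 with library totals. S100a10 was 0.64 higher in K14+ cells (adjusted p = 0.0632) and S100a1 0.88 higher (16.9 and 14.6 CPM in K14+ cells, against 5.5 to 11 CPM in the 6 others, adjusted p = 0.0685). Slc1a3+ against Aspm+ cells in back gave 0 members (0.16% of all genes), with 1 at an unadjusted p under 0.05, S100a10 (log2 -0.60, adjusted p = 0.172), and 0 by DESeq2. Their totals gave 0 (0.0114%, with 6 unadjusted and 1 by DESeq2), S100a10 being -0.61 there (adjusted p = 0.158).

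In the tail Aspm and Slc1a3 lines the libraries of a number varied together in the Lce genes. The summed Lce level in tail was 14.4 CPM in Aspm+ R1 and 11.4 in its total, and 56.1 in Aspm+ R2 and 43.1 in its total. It was 13 CPM in Slc1a3+ R1 and 11.3 in its total, and 4.15 in Slc1a3+ R2 and 2.79 in its total. In both lines the labelled library and the total of a number lay nearer each other than the 2 numbers of a gate did. Dlx1+ cells had 1.44 and 0.913 CPM, and their total 1.34 and 6.32 CPM, so R2 of that line departed from this. S100a8 had 4.22 CPM in tail Dlx1+ R1 and 4.29 in its total, and 0.426 in R2 and 0.123 in its total. Hrnr, another S100-fused protein, had 3.13 and 4.48 CPM in tail Aspm+ cells and 3.35 and 3.93 in their total, and 0 to 0.905 CPM in the other tail libraries.

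The genes that act on the envelope proteins were counted in the same fit, from lists drawn up with knowledge of skin. In total IFE between sites, 9 of 17 cross-linkers and partners were higher in tail and 4 lower. They were led by the protease inhibitors of the cystatin family: Csta1 (59.6 ± 10.3 against 0.79 ± 0.612 CPM; log2 6.11, adjusted p = 6.82e-11), Cst6 (164.6 ± 33.9 against 16.5 ± 8.69 CPM; log2 3.39, adjusted p = 1.54e-10) and Cstb (log2 1.24). The desmosomal cadherin Dsg1a was lower in tail (384.1 ± 60.8 against 1042 ± 130 CPM; log2 -1.44). Of 12 filaggrin-processing genes 5 were higher and 5 lower. The desquamation proteases Klk7 (log2 4.24) and Klk5 (2.18) were higher, whereas their inhibitor Spink5 (-1.77) and the filaggrin protease Casp14 (-1.06) were lower. Of 8 other genes, listed as part of the complex but not checked by position, 3 were higher. They were Them5 (log2 2.58), Crct1 (3.71) and Prr9 (2.12 ± 0.509 against 0.0644 ± 0.158 CPM). Pglyrp4, a bactericidal peptidoglycan-binding protein, was lower (-1.25). Of 25 transcription factors of the granular programme 6 were higher and 12 lower. Gata3 had 91.3 ± 5.14 CPM in tail against 591.3 ± 25.2 CPM in back (log2 -2.7), and Satb1 (-2.67), Ahr (-1.75) and Klf5 (-1.04) were lower too. Of 11 S100 partners and S100 genes outside the complex 3 were higher and 3 lower, among them Anxa1 (-1.03), Ahnak (-1.02), Anxa6 (-0.86) and Tlr4 (0.869 ± 0.414 against 0.0172 ± 0.042 CPM). The background of 46.2% applies to each of these counts.

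In Slc1a3+ cells the same lists, in that order, gave 8 higher and 4 lower, 4 and 5, 2 and 0, 2 and 11, and 0 and 2, beside a background of 40.6% of all genes. In Aspm+ cells they gave 8 and 5, 5 and 5, 3 and 1, 4 and 5, and 1 and 4, beside 27.2%. Tail Slc1a3+ cells exceeded Dlx1+ cells in Cst6 (190.4 ± 3.79 against 33.2 ± 5.3 CPM; log2 2.52), Cstb (0.93), Klk7 (2.00) and Anxa2, the partner of S100a10 (2739 ± 205 against 1643 ± 281.8 CPM; log2 0.74), and were lower in Jun (-1.72) and Ahr (-0.87), while 5.47% of all genes passed. The totals of these lines passed for Cst6 (1.46, adjusted p = 0.0481), Jun (-1.46, adjusted p = 0.0279) and Anxa2 (0.63, adjusted p = 0.0431) in the same directions. Jun was also lower in tail Slc1a3+ than in Aspm+ cells (24.1 ± 2.32 against 80 ± 8.34 CPM; log2 -1.73). Tail Aspm+ cells exceeded Dlx1+ cells in Cst6 (2.41), Klk7 (3.30) and Asprv1, a filaggrin protease (3.71). The back K14 total exceeded the other totals in Cst6 (1.21), Klk7 (2.71), Crct1 (3.35), Hopx (0.64) and Anxa2 (0.49), and K14+ cells exceeded the other labelled cells in Hopx (0.64). For labelled cells against their total, 0 genes passed in every list. Among markers of other cells, sebaceous genes summed to 502.8 to 1151 CPM in tail and 247.8 to 485.2 CPM in back, and immune markers other than neutrophil to 3.06 to 27.1 CPM in tail and 13.8 to 142.1 CPM in back. Melanocyte and Schwann markers summed to 4.42 to 17.4 CPM in tail and 1.23 to 11.9 CPM in back, and endothelial markers to 0.56 to 6.17 and 0.0613 to 10.8 CPM. Their part in these results was not tested.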

How the data were processed

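The deposited files hold the authors' raw read counts per gene, 1 library a file. The submitters' processing notes name, without their order, STAR 2.7.0e, Trim Galore 0.6.0, FastQC, cutadapt and DESeq2 1.26.0, and the builds GRCm38 and mm10. Per the labels' protocols, poly(A) RNA taken up in TRIzol went into non-directional Ultra II libraries. The counting program, annotation and strand setting are not given in the sources used here, so overlapping genes and shared sequence make some counts uncertain.

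All 55536 identifiers matched GENCODE M21, and 33440 had a count. Counts were scaled by TMM and kept by filterByExpr (minimum count 10), which left 17493 genes. One quasi-likelihood model in edgeR 4.0.16 (robust, 1 mean per group over 28 libraries, 16 residual degrees of freedom, biological coefficient of variation 0.28) gave all 21 comparisons. Benjamini-Hochberg adjusted p over all 17493 genes had to be under 0.05. SE is that of the log2 difference. A group with 0 counts was set to 3 counts per library, and with 1 to 3 counts the ratio has a 95% interval. These and other intervals cover counting error only. DESeq2 1.42.0 was the alternative test, under R 4.3.3, and tables and plots were made in Python 3.11.15 with pandas 2.3.3 and matplotlib 3.10.9. The model was tested on simulated counts.

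Labelled and total libraries of the same line, site and number were taken as pairs. The labels do not state it. In each of the 14 pairs the 2 libraries deviated together from their groups (r = 0.18 to 0.689). The check covered 10376 genes whose mean log2 CPM was 2 or more. In groups of 2 libraries both pairs give the same r by construction. Labelled and total libraries of the same number but another line or site had r of -0.262 to 0.379. These values overlap those of the pairs, so the check does not settle the pairing. The block of 1 term per pair (8 residual degrees of freedom, coefficient of variation 0.185) changed no call for labelled cells against their total.

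The members, gene lists, markers and comparisons were chosen with earlier results of these data known. Of the members that passed in a comparison, up to 6 with the lowest p are given in every library and the others by fold change, and the 3 with the highest mean CPM of each family are given in every group. For other lists the counts and up to 4 genes with the lowest p are given. Of the genes on the lists, 17 of 18, 13 of 13, 12 of 13, 26 of 26 and 12 of 12 were matched. Of the 12 marker lists only Krt85 was not matched. Alternatives were other scaling, no low-count filter, DESeq2, a fit of only the groups compared, a replicate block, and libraries left out.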

Additional observations from a re-analysis of the deposited data

How the results depend on the processing

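The count of members passing kept within 1.5 times for total IFE between sites (23 to 29 over the alternatives, 22 to 28 with a library left out). It was 20 to 26 for Aspm+ cells between sites, and 11 to 23 with a library left out. Slc1a3+ cells between sites gave 24 members without the low-count filter, and 9 to 14 with a library left out. For labelled cells against their total, and for the interactions, 0 members passed under every alternative and with every library left out, the replicate block included. Tail Slc1a3+ against Dlx1+ cells gave 13 in a fit of only those groups, and 0 to 4 with a library left out. The back K14 total against the other totals gave 1 with library totals, 10 without the filter, 0 with only those groups, 7 without the library of few genes (back Slc1a3 total R4) and 0 to 7 with a library left out. K14+ against Slc1a3+ and Aspm+ cells gave 4 without the filter, 2 by DESeq2, 4 without the library of few genes and 0 to 2 with a library left out. Tail Aspm+ against Dlx1+ cells gave 11 without the filter, 4 by DESeq2, 11 with only those groups and 2 without the library of few genes. The tail Slc1a3 total against the Dlx1 total gave 7 without the filter, 4 by DESeq2, 1 with only those groups, 3 without the library of few genes and 2 with the replicate number as a block. The tail Aspm total against the Dlx1 total gave 4, 1 by DESeq2 and 4 with only those groups. The tail Slc1a3 total against the Aspm total gave 4 without the filter and 2 by DESeq2, and the back Slc1a3 total against the Aspm total gave 2 and 1. Tail Slc1a3+ against Aspm+ cells gave 2 without the filter and 2 with only those groups, and back Slc1a3+ against Aspm+ cells gave 1 without the filter. The cause of these moves was not tested. Across lines and sites the replicate number is only a number. Of the single members called, 889 values kept their direction and call, 127 lost the call, and 1 reversed: Lce1c in total IFE between sites ran from -0.20 (without the tail Slc1a3 total R1, adjusted p = 0.771) to 5.26 with a library left out. Depth limits the Lce, Flg and other envelope genes of under 1 CPM, whose fitted folds move with single libraries, and Flg gave no usable error in total IFE because both Slc1a3 totals held no count.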
